A study of Mus musculus with 2 samples.

Results

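A set of miRNA genes used as markers of blood vessel walls and of embryonic mesenchyme was followed in the midbrain of mouse embryos, 9 of 1973 miRNA loci with counts. They were chosen by name: Mir126a, Mir221 and Mir222 for endothelium, Mir143 and Mir145a for mural cells, and Mir199a-1, Mir199a-2, Mir199b and Mir214 for mesenchyme. Earlier results of these data were known when they were chosen. All 9 had a row in the count tables. The series held 1 group, B6NCrl midbrain at embryonic day 14.5, with 2 biological replicates and no treatment or mutation in the labels. Each library came from the midbrain of 1 pup, collected on different days, while the labels also give mixed sex and a donor identifier common to both. If they were not separate animals, the spread given here is technical. Small RNA with a stated size limit of 30 nt was sequenced from total RNA.

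Blood vessels grow into the embryonic midbrain from a plexus on its surface. Endothelial cells line them, pericytes and smooth muscle cells (together the mural cells) wrap them, and the meninges around the brain are built of mesenchyme. miR-126 is the best known endothelial miRNA and acts on signalling by vascular growth factors. The miR-143 and miR-145 genes lie side by side and are hallmarks of smooth muscle and mural cells. The miR-199 and miR-214 genes lie antisense to dynamin genes and are typical of mesenchyme and skeletal precursors. Endothelium shares miR-221 and miR-222 with many dividing cells, so that these genes mark it less strictly.

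The mature sequences show which of these loci can be told apart by their reads, and so how far each count can be read. Sequences are from RefSeq on GRCm38.p6, where 7 of the 9 loci matched. Mir143 and Mir145a had no entry, so whether their reads are shared with other loci was not checked. Capitals mark the seed, bases 2 to 8, which pairs with target messages.
miR-126a-3p (chr2:26591402-26591423, plus strand): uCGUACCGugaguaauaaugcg
miR-221-3p (chrX:19146307-19146329, minus strand): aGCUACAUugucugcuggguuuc
miR-222-3p (chrX:19146901-19146923, minus strand): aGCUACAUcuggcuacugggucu
miR-214-3p (chr1:162223438-162223459, plus strand): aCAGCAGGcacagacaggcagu
miR-199a-5p (chr1:162217844-162217866, plus strand, and chr9:21496537-21496559, minus strand): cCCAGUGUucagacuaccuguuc
miR-199a-3p and miR-199b-3p (chr1:162217883-162217904, plus strand, chr9:21496498-21496519, minus strand, and chr2:32318524-32318545, plus strand): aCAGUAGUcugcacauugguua
miR-221-3p and miR-222-3p carry the same seed, GCUACAU, and share their first 8 bases, but only 11 of 23 bases without gaps. The miR-199a-3p sequence occurs in 3 hairpins, those of Mir199a-1, Mir199a-2 and Mir199b, and miR-199a-5p in 2, those of Mir199a-1 and Mir199a-2. The authors' tables tally reads that map to several places apart from the genes, 36.2% of all reads in replicate 1 and 36.9% in replicate 2. A read of such a shared arm can therefore be missing from all 3 counts, and levels of the miR-199 loci are uncertain.

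The 5′ arm is where Mir199b can be told from its relatives. Below, capitals mark the base that differs between miR-199a-5p and the matching stretch of the Mir199b hairpin, its bases 26 to 48.
miR-199a-5p: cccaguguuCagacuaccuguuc
Mir199b hairpin stretch: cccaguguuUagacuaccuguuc
The stretch differs by the single substitution C10U, counted from 1 at the 5′ end of miR-199a-5p. Of all 20-nt windows of the Mir199b hairpin 89.0% occurred in no other annotated miRNA hairpin, against 82.4% for Mir199a-2 and 66.7% for Mir199a-1. These percentages cover whole hairpins. Both mature arms of the miR-199a loci are shared, so they do not measure how many of their reads can be told apart. The hairpins of Mir126a, Mir221, Mir222 and Mir214 shared no 20-nt window with the hairpin of a locus that does not overlap them. Mir126b, which overlaps Mir126a on the opposite strand, was left out of that comparison.

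Replicate 1 held 7302633 sense reads at miRNA loci and replicate 2 held 3966727, and levels are given as CPM, the counts per 1000000 of these reads. A count of 0 allows a level of up to 3 reads, which is 0.411 CPM for the first library and 0.756 CPM for the second. Intervals are exact Clopper-Pearson 95% intervals and cover counting error only. Detection required 10 or more sense reads in each library, which 397 loci and 7 of the 9 vessel and mesenchyme loci reached. Of 11 listed neural loci 9 were detected, led by Mir149, Mir137 and Mir153 at 17513 ± 704, 12716 ± 1726 and 5876 ± 843 CPM (SD, n = 2). Mir128-1, Mir132, Mir128-2 and Mir9-3 stood at 1179, 812, 734 and 536 CPM on average. The remaining neural loci had low counts, with Mir124a-1, Mir124a-2, Mir124a-3 and Mir9-2 at 6.66, 11.3, 1.92 and 2.09 CPM on average. Reads that map to several places are outside these counts, and their part in the low values was not tested. With a single group there was no contrast between conditions, and ratios between the replicates compare 2 libraries. In whole tissue, fewer cells of a type and less RNA per cell cannot be told apart.

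The 9 loci together took 3.32% of sense reads in replicate 1 (95% interval 3.30 to 3.33) and 2.22% in replicate 2 (2.20 to 2.23). Endothelial loci supplied 82.4% and 82.7% of those reads, mural loci 16.7% and 17.0%, and mesenchymal loci 0.966% and 0.312%. Mir126a alone was 81.5% of them in replicate 1 and 81.3% in replicate 2, so the summed level mostly reflects that locus. Without Mir126a the other 8 took 0.612% and 0.415% of sense reads.

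**Figure D1:**
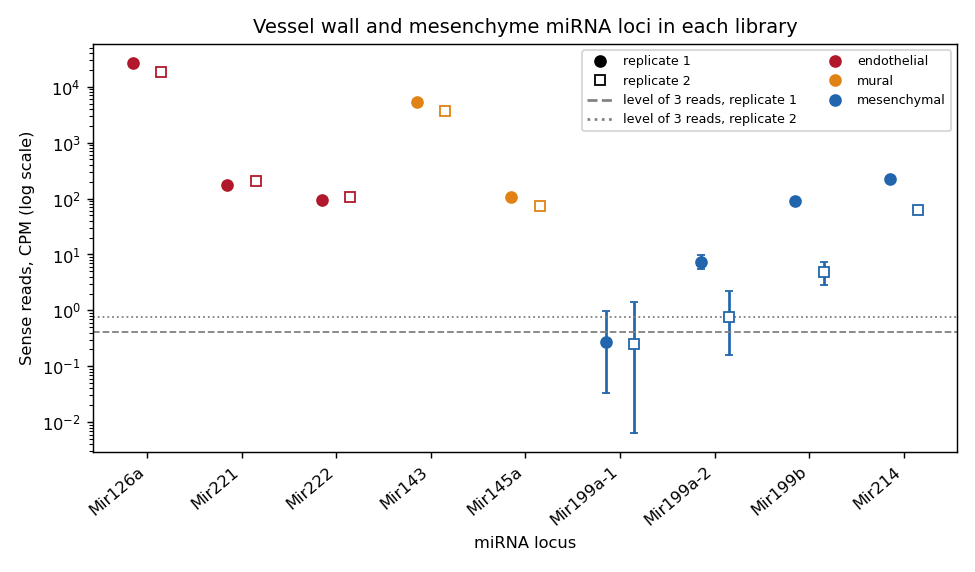
CPM of sense reads (y axis, log scale) at the 9 loci in replicate 1 (filled circles) and replicate 2 (open squares), with exact 95% counting intervals and the level of 3 reads as grey lines. Mir126a and Mir143 are the highest in both libraries, and the gap between libraries is widest at Mir199b, 88.7 against 4.79 CPM.

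Mir126a, the endothelial locus, held 197441 reads in replicate 1 and 71446 in replicate 2, or 27037 and 18011 CPM. It ranked in places 10 and 11 of all loci in the respective libraries. Mir126a (ENSMUSG00000065540.1) is at chromosome 2, 26591357 to 26591429, plus strand, within Egfl7, a gene for a protein secreted by endothelium, and overlaps an exon of at least 1 annotated Egfl7 transcript. After scaling with TMM, a method that sets the typical locus to no difference, it was 1.60-fold lower in replicate 2 (counting interval 1.59 to 1.62). All ratios of replicate 2 to replicate 1 given here are TMM scaled unless CPM or plain totals are named, and so differ slightly from the ratio of the CPM values. The count of 71446 in replicate 2 was also that of the neural locus Mir149, whose count in replicate 1 was 124255. The origin of this tie was not tested.

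Mir221 and Mir222, from 1 cluster on the X chromosome, were far lower. Mir221 (ENSMUSG00000065422.1, chromosome X from 19146294 to 19146388, minus strand) had 1269 and 832 reads, or 174 and 210 CPM. Mir222 (ENSMUSG00000065471.1, from 19146893 to 19146971) had 695 and 422 reads, or 95.2 and 106 CPM. Neither overlaps another annotated gene, and both were slightly higher in replicate 2, unlike Mir126a. The log2 ratio of replicate 2 to replicate 1 was 0.18 for Mir221 (interval 0.05 to 0.30) and 0.07 for Mir222 (-0.11 to 0.24). Their hairpins lie 504 nt apart, and Mir221 exceeded Mir222 by 1.83 times in replicate 1 (1.66 to 2.01) and 1.97 times in replicate 2 (1.75 to 2.22), intervals that overlap. Mir126a exceeded Mir221 by 156 times in replicate 1 (147 to 165) and 85.9 times in replicate 2 (80.2 to 92.1), intervals that do not overlap. The 3 endothelial loci thus did not keep a common proportion.

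Mir143 and Mir145a, the mural cluster on the minus strand of chromosome 18, lie 1301 nt apart and differed about as much in level in both libraries. Mir143 (ENSMUSG00000065445.2) had 39599 and 14655 reads, or 5423 and 3694 CPM, at ranks 35 and 52. Mir145a (ENSMUSG00000065592.1) had 778 and 297 reads, or 107 and 74.9 CPM. Mir143 made up 98.1% of the reads of the pair in replicate 1 and 98.0% in replicate 2. It exceeded Mir145a by 50.9 times in replicate 1 (47.4 to 54.7) and 49.3 times in replicate 2 (44.0 to 55.5). Both were lower in replicate 2, Mir143 by 1.57-fold (1.54 to 1.60) and Mir145a by 1.52-fold (1.33 to 1.74). Mir145b, the other locus of that name, had no read in either library.

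The leading endothelial and mural loci kept nearly the same proportion in both libraries. Mir126a stood at 4.99 times Mir143 in replicate 1 (4.93 to 5.04) and 4.88 times in replicate 2 (4.79 to 4.96), a mean of 4.93 ± 0.0784 (SD, n = 2). Because this is a ratio within each library, it does not depend on how the libraries are scaled. The levels of Mir126a and Mir143 themselves varied by 28.3% and 26.8% of their means.

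**Figure D2:**
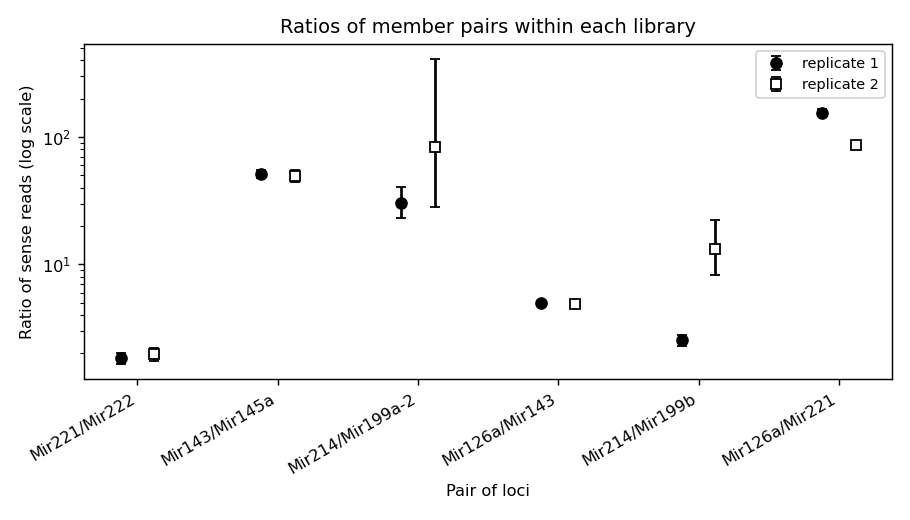
Ratio of sense reads between pairs of loci (y axis, log scale) in replicate 1 (filled circles) and replicate 2 (open squares), with exact 95% counting intervals. Mir221/Mir222, Mir143/Mir145a and Mir126a/Mir143 nearly coincide, whereas Mir214/Mir199b stands at 2.52 and 13.2.

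By these counts the mesenchymal loci were the least abundant class and differed most between the libraries. Reads of arms shared among the miR-199 loci can be missing, so the level of the class may be understated. Summed over 4 loci they had 320 and 69.1 CPM in replicates 1 and 2, a 4.95-fold difference after TMM scaling (4.37 to 5.64). Mir214 (ENSMUSG00000065516.1, chromosome 1 from 162223368 to 162223477, plus strand) led them with 1636 and 251 reads, or 224 and 63.3 CPM. It was 3.78-fold lower in replicate 2 (3.31 to 4.34). Mir214 and Mir199a-2 overlap exons of the noncoding gene Dnm3os, which gives rise to both, and lie antisense to an intron of Dnm3.

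Mir199b (ENSMUSG00000092807.1, chromosome 2 from 32318460 to 32318569, plus strand, antisense to an intron of Dnm1) had 648 reads in replicate 1 and 19 in replicate 2. These are 88.7 and 4.79 CPM, an 18.5-fold difference in CPM and a 19.8-fold difference after TMM scaling (12.6 to 33.1). Its log2 ratio of -4.31 was the lowest of all 397 detected loci, and that of Mir214, -1.92, was the sixth lowest. Between them stood the myeloid locus Mir223 at -3.21, Mir483 at -2.07, Mir6236 at -1.99 and the red cell locus Mir451a at -1.95. Mir6236, suspected to be a piece of ribosomal RNA, and the ranks were looked up after the values were seen.

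Mir199a-2 (ENSMUSG00000070126.1, chromosome 1 from 162217814 to 162217923, plus strand) had 54 and 3 reads, or 7.39 and 0.756 CPM. The ratio of the libraries after TMM scaling was 10.4, with a wide counting interval of 3.39 to 52.2. Mir199a-1 (ENSMUSG00000065547.1, chromosome 9 from 21496495 to 21496564, minus strand, antisense to an intron of Dnm2) had 2 reads in replicate 1 and 1 in replicate 2, at or under the floor. Mir199a-1 and Mir199a-2 share both of their arms, printed above. At either locus a low level therefore cannot be told apart from a loss of shared reads.

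Within the class the proportions shifted as well. Mir214 exceeded Mir199b by 2.52 times in replicate 1 (2.30 to 2.77) and by 13.2 times in replicate 2 (8.28 to 22.3). Mir199b supplied 27.7% of mesenchymal reads in replicate 1 and 6.93% in replicate 2. Mir214 exceeded Mir199a-2, from the same transcript and 5444 nt away, by 30.3 times in replicate 1 (23.1 to 40.5) and 83.7 times in replicate 2 (28.3 to 408). The intervals of that last pair overlap, and its ratios carry the limit on Mir199a-2 counts given above. The miR-199b-3p arm is shared with the Mir199a loci, so its reads can be missing from the Mir199b count. The ratios of Mir214 to Mir199b and the shares of Mir199b carry that limit.

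In order of mean level the loci ran from Mir126a (22524 ± 6382 CPM) through Mir143 (4559 ± 1222), Mir221 (192 ± 25.4), Mir214 (144 ± 114), Mir222 (101 ± 7.93), Mir145a (90.7 ± 22.4), Mir199b (46.8 ± 59.4) and Mir199a-2 (4.08 ± 4.69) to Mir199a-1 (0.263 ± 0.0154). The first 2 steps of that order exceeded the SD of either neighbour, and each of the lower steps was smaller than an SD beside it. Mir214 stood above Mir221, Mir222 and Mir145a in replicate 1 and below all 3 in replicate 2. Of loci outside the set, Mir99b and Mir487b were closest in level to Mir126a, Mir23a and Mir21a to Mir143, and Mir702 and Mir503 to Mir214. Closeness was the distance in log2(CPM + 1) over the 2 libraries, from 0.27 for Mir143 and Mir23a to 0.91 for Mir214 and Mir503.

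Beyond 1.5-fold, 5 of the 7 detected loci were lower in replicate 2 and 0 were higher. Of all 397 detected loci, 38 (9.57%) were lower and 28 (7.05%) higher by that fold. The median log2 ratio of the 7 was -0.65 and that of all detected loci -0.00028. The 5 were Mir126a, Mir143, Mir145a, Mir199b and Mir214. Mir126a, Mir143 and Mir145a lie close to the chosen fold: scaled by plain totals, 3 of 7 passed, with Mir143 at 1.47-fold and Mir145a at 1.42-fold, against 30 lower (7.56%) and 36 higher (9.07%) of 397 detected loci. That scaling moved the median of all detected loci to 0.09. Beyond 2-fold only Mir199b and Mir214 of the detected set were lower, against 15 of all detected loci (3.78%).

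**Figure D3:**
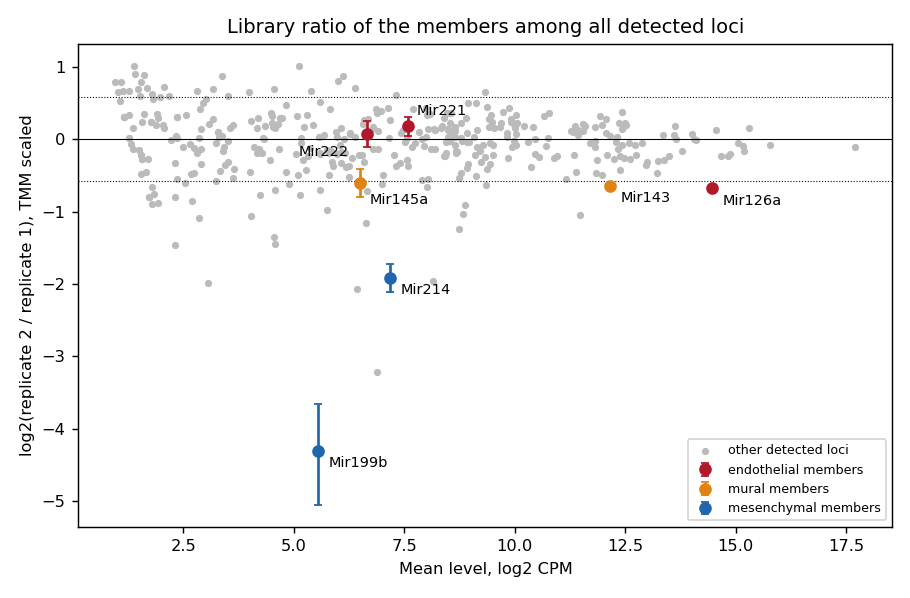
log2 ratio of replicate 2 to replicate 1 after TMM scaling (y axis) against mean level (x axis, log2 CPM) for 397 detected loci, with members coloured by class and 95% counting intervals as bars. Dotted lines mark 1.5-fold. Mir199b at -4.31 is the lowest point, while Mir221 and Mir222 lie near 0.

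Other loci of the same tissues were read against the same shares, 9.57% lower and 7.05% higher of all detected loci, and lists this short hold few such loci at those shares. These lists and those below were chosen with earlier results of these data known, so their counts are descriptive only. Of 13 further loci expressed in endothelium but not specific to it, 11 were detected and 0 differed by over 1.5-fold in either direction. Their leaders Mir130a, Mir23b and Mir296 stood at 36977 ± 75.1, 9635 ± 991 and 5003 ± 130 CPM, and their median log2 ratio was -0.09. Mir126b and Mir24-1 were not analysed here. Among 7 further mesenchyme, fibroblast and cartilage loci, 6 were detected, 2 lower and 0 higher. The 2 were Mir483, in the Igf2 gene, at -2.07 and Mir152 at -0.78. The most abundant of the list were Mir140, a cartilage miRNA at 5499 ± 617 CPM, Mir21a at 4865 ± 441 CPM and Mir455 at 238 ± 54.1 CPM, with log2 ratios of 0.13, -0.28 and -0.56. The list summed to 10791 and 10867 CPM in replicates 1 and 2, mostly from Mir140 and Mir21a, with a log2 ratio of the sums of -0.08 after TMM scaling and a median log2 ratio over its 6 detected loci of -0.42.

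Of 7 detected blood cell loci 3, Mir451a, Mir144 and Mir223, were over 1.5-fold lower in replicate 2, against 9.57% of all detected loci. The 3 red cell loci, all detected, summed to 486 and 153 CPM in the replicates, with Mir451a at -1.95, Mir144 at -0.70 and Mir486 at 0.04 in log2 ratio. The 5 white cell loci, 4 of them detected, summed to 462 and 234 CPM; only Mir223 passed 1.5-fold, Mir155 stood at -0.32, Mir150 at -0.53, Mir146 at -0.17 and Mir142b had no sense read. Of 6 choroid plexus and ciliated cell loci 5 were detected, with sums of 2035 and 1502 CPM. Only Mir449a passed, at -1.24, beside Mir204 at -0.34 and Mir34c at -0.31. The part of blood, choroid plexus or depth in the lower counts of the vessel and mesenchyme loci was not tested.

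The neural, epithelial and striated muscle lists had 0 detected loci over 1.5-fold lower in replicate 2. Of the neural loci under the detection minimum, Mir9-2 had 25 and 3 reads in replicates 1 and 2, and Mir124a-3 had 17 and 6. Of all detected loci 9.57% were lower and 7.05% higher by that fold, and lists this short hold few such loci. The neural list summed to 36807 and 41968 CPM in the replicates, with 0 of 9 detected loci beyond 1.5-fold. Of 7 epithelial loci, led by Mir203, Mir429 and Mir205 at 731 ± 5.66, 22.2 ± 4.92 and 18.4 ± 0.334 CPM, 2 were higher, Mir141 and Mir200a, with 11 to 14 reads each. Of 7 striated muscle loci only 2 were detected, Mir206 and Mir208b, and Mir1a-2 was not analysed. The list summed to 31.4 and 41.1 CPM, mostly Mir206 at 26.4 ± 5.04 and Mir208b at 8.94 ± 1.61 CPM. Mir133b stood at 0.778 ± 0.326 CPM, and Mir133a-1 and Mir133a-2 at 0. The epithelial sums were 787 and 805 CPM in the replicates, a log2 ratio of -0.06 after TMM scaling, so that the direction depends on the scaling; that of the muscle sums was 0.30.

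**Figure D4:**
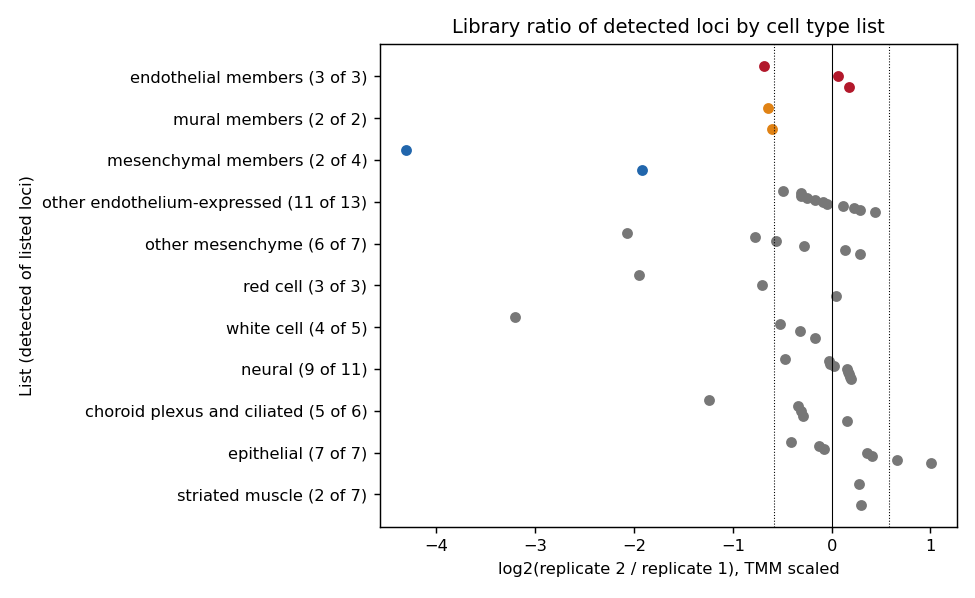
log2 ratio of replicate 2 to replicate 1 (x axis, TMM scaled) of each detected locus, grouped by list (y axis, with detected and listed numbers). The 2 detected mesenchymal loci lie at -4.31 and -1.92, and the 9 neural loci lie between -0.47 and 0.20.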

How the data were processed

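The authors deposited 1 table of raw read counts per library, with both strands, the annotated (sense) strand and the opposite strand per miRNA gene. Per the text deposited with each library, counts were made on mm10 with annotation M4; for the aligner and the counter, the sources used here name none. Unmapped (19.0% and 18.5% of reads in replicates 1 and 2), multiply mapped and no-gene reads (3.10% and 2.17%) stayed out of totals.

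Sense counts were divided by the sense total of each library (CPM). Symbols, positions and hosts came from GENCODE M21, where 1894 of 1973 identifiers matched. Ratios used TMM factors from edgeR 4.0.16, on loci with at least 10 reads in each library; DESeq2 1.42.0 size factors were an alternative. No pseudocount entered the ratios. The ratio step was run on simulated counts with known folds and counting error only. That run checks the calculation, not the choice of scaling or the spread between libraries. The 9 loci, the 12 lists and the rule for named loci (the members, the 3 highest of each list, neighbours within 10 kb, the 2 nearest in level) were chosen with earlier results of these data known. No condition test was possible; loci named outside the rule were chosen after their values were seen.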

Additional observations from a re-analysis of the deposited data

Results flagged for a closer look

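On the strand opposite Mir126a, outside the sense counts used above, replicate 1 had 5 reads and replicate 2 had 0. A count of 0 allows up to 3 reads, and 1 read is 0.252 CPM in replicate 2 against 0.137 CPM in replicate 1. These counts therefore cannot show a difference between the libraries. The annotated Mir126b lies on that strand and was not analysed here.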

How the results depend on the processing

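No paired analysis was possible because the series holds a single group. The 7 detected members became 8 with a minimum of 3 reads and 6 with 100, and stayed 7 with the unstranded count. Of the 7 detected members 5 were over 1.5-fold lower in replicate 2, 3 with plain totals, 5 with DESeq2 size factors and 2 at a fold of 2. With a minimum of 3 reads 6 of 8 were lower, with 100 reads 4 of 6, and 0 were higher in any of these. Over all 397 detected loci, 38 lower and 28 higher became 30 and 36 with plain totals and stayed 38 and 28 with DESeq2 size factors. The counts became 15 and 2 at a fold of 2, 80 and 58 with a minimum of 3 reads, and 18 and 8 with a minimum of 100. Numbers of loci passing the minimums of 3 and 100 reads are not given, so member counts there have no background share. The share of sense reads at the members was 2.77% on average, 0.514% without Mir126a, and 2.22% to 3.32% with a replicate left out. No log2 ratio of a member changed sign under the alternatives run; 2 moved beyond their counting interval, Mir126a to -0.59 and Mir143 to -0.55 with plain totals, and 43 did not. Member levels moved by more than their SD in 11 cases, all with every read of the library or all but Mir99a as the total, and by less in 34. A further 18 levels with a replicate left out are not counted, because the mean of 2 values always lies within their SD of either; Mir199b then lay between 4.79 and 88.7 CPM. With a replicate left out, Mir221/Mir222 lay between 1.83 and 1.97, Mir143/Mir145a between 49.3 and 50.9, Mir126a/Mir143 between 4.88 and 4.99, Mir214/Mir199a-2 between 30.3 and 83.7, and Mir199b/Mir199a-1, with 2 reads or fewer below the line, between 19 and 324. Depth limits the miR-199a loci most, where 1 read is 0.137 CPM in replicate 1 and 0.252 CPM in replicate 2.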

Other observations

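Identical counts at different loci were looked for after the tie of Mir126a and Mir149 was seen. Among loci with at least 1000 sense reads, 0 of 195 in replicate 1 shared a count with another, whereas 169 loci in replicate 2 held 4 tied pairs. The pair of Mir126a and Mir149 at 71446 reads was the highest, and the next stood at 2224 reads.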
